A study of Mus musculus with 9 samples.

Results

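The genes described here are markers of other cells of the spleen, read in RNA of sorted mouse CD8+ T cells: 12 genes of macrophages and monocytes, 11 of dendritic cells, 9 of B cells, 6 of neutrophils, 3 of natural killer (NK) cells and 4 of erythroid cells. They were taken by name, with earlier results of these data known. Each was represented by the probe set, among those annotated with that gene alone, with the highest mean over all 9 arrays. In this way 43 of the 45 listed genes were measured, among 17097 genes in all. The dendritic cell genes Siglech and Clec9a had no named probe set here and were not analysed. One expression microarray was read per sample. The cells were CD8+ T cells that recognise OVA, used as a model antigen, isolated by flow cytometry from spleen lymphocytes 9 days after Listeria monocytogenes infection. All mice were of the C57BL/6 background and carried floxed Tsc1 alleles, the gene of a subunit of the complex that restrains the growth kinase mTORC1. The 4 WT samples came from mice without cre. The 5 Tsc1-/- samples came from mice with cre under Granzyme B, a gene of activated cytotoxic lymphocytes, so that genotype and cre transgene cannot be told apart. Neither age and sex nor the gates and purity of the sort is given in the sources used here. The labels do not say whether each sample was a separate animal, so p-values measure only how much these samples vary, which may be technical.

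A sort for antigen-specific CD8+ T cells aims to leave out every cell type marked by these genes. In the spleen, red pulp macrophages take up aged erythrocytes, dendritic cells present antigen to T cells on MHC class II and class I, B cells fill the follicles and marginal zone, and neutrophils and red cell precursors are added by blood and by splenic haematopoiesis during infection. Some of the genes are not private to one cell type: class II genes are shared by dendritic cells, B cells and macrophages, and Itgax, Tyrobp and Fcer1g can also be active in cytotoxic lymphocytes. In samples of pooled cells such as these, fewer cells of a type and less RNA per cell cannot be told apart.

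Any pair of arrays correlated at 0.982 to 0.991 (Pearson) across all probe sets, with array medians of 5.97 to 6.05 on the log2 scale. The labelled cell type was borne out by its own genes. Of 14 CD8 T cell genes, 12 were measured, and their mean log2 level lay between 10.79 and 10.92 in every array. Cd8a read 12.08 ± 0.04 in the WT group and 12.10 ± 0.06 in the Tsc1-/- group (SD, n = 4 and 5), Cd8b1 read 11.52 ± 0.06 and 11.50 ± 0.09, and the T cell receptor component Cd3e read 11.81 ± 0.04 and 11.82 ± 0.02. Cd4, of helper T cells, read 6.53 ± 0.24 and 6.54 ± 0.32. No gene of the CD8 or the CD4 T cell list passed (limma). The gene with the smallest p was the kinase gene Zap70 among the former, with a log2 difference of 0.20 (adjusted p = 0.287, limma), and Foxp3 among the latter, with a log2 difference of 0.17 (adjusted p = 0.385, limma). The targeted gene Tsc1 read 7.66 ± 0.09 in WT and 7.40 ± 0.09 in Tsc1-/- (adjusted p = 0.114, limma), with no overlap. Further Tsc1 probe sets differed by -0.01 and -0.32, against -0.26 by the one used, so its probe sets disagreed. As a guide to where a probe set may read background, 35 measured genes of other organs, such as those of liver, lens and pituitary, had a median log2 level of 5.48 and an upper quartile of 6.13, with 8.55 for the highest, Prm1. Probe sets differ in their response, so this is a rough guide. Of the 43 markers, 26 had a mean above that upper quartile: 7 of 12 macrophage, 7 of 9 dendritic cell, 3 of 9 B cell, 5 of 6 neutrophil, 2 of 3 NK cell and 2 of 4 erythroid genes.

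The comparison of 4 WT with 5 Tsc1-/- samples asked whether these marker genes differed between the genotypes. Of the 43 genes, 41 (95.3%) had a lower mean in Tsc1-/-, against 51.8% of all genes, and their median log2 difference (Tsc1-/- minus WT) was -0.39 against -0.01 over all genes. None passed the threshold of an adjusted p under 0.05 (limma, Benjamini-Hochberg over 17097 genes), while over all genes 0.31% were called lower and 0.971% higher, 1.28% in all. At an unadjusted p under 0.05, 18 of the 43 (41.9%) were lower, against 7.34% of all genes, and 0 were higher, against 9.83% of all genes. At an adjusted p under 0.1, 5 were lower (11.6%, against 1.22% of all genes): Csf1r, C1qa, Cd22, Adgre1 and Fcer1g. The genes were chosen with earlier results known, and genes of the same cell type can vary together. These shares therefore describe the list and do not test it. The median difference was -0.48 for macrophage, -0.39 for dendritic cell, -0.36 for B cell, -0.43 for neutrophil, -0.77 for NK cell and -0.25 for erythroid genes. The NK cell value rests on 3 genes: Tyrobp (-0.77) and Fcer1g (-0.95), which are not private to NK cells, and Ncr1 (-0.18).

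**Figure D1:**
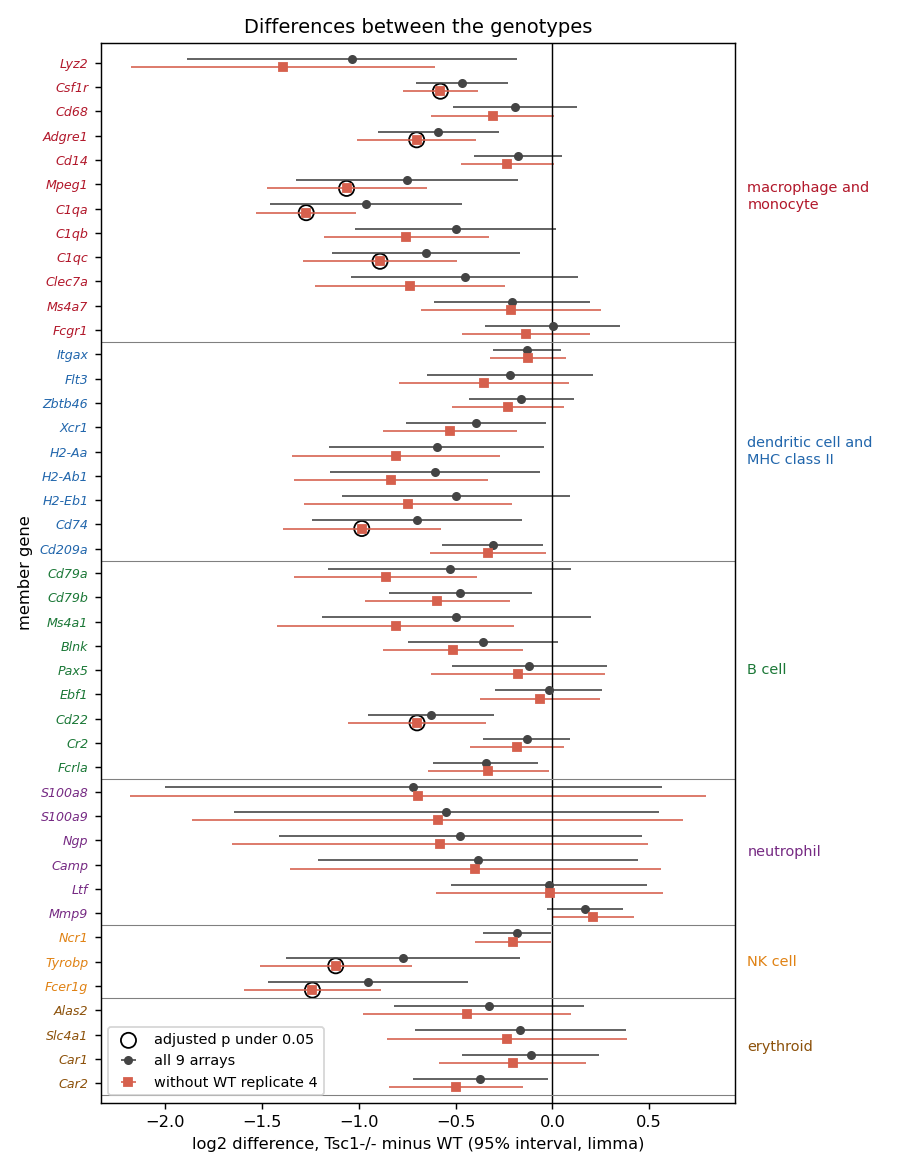
Log2 difference between the genotypes (x axis, Tsc1-/- minus WT) with its 95% interval from limma for the 43 measured marker genes (y axis, grouped and coloured by cell type), with all 9 arrays (grey circles) and without WT replicate 4 (red squares). With all arrays 41 of 43 points lie below 0 and none passes the threshold, and without WT replicate 4 the 9 ringed genes pass.

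One array bore on many of these values. WT replicate 4 had the lowest level of the 4 WT arrays in 30 of the 43 genes (69.8%), against 27.7% of all genes. It lay at or below the highest Tsc1-/- array in 39 of the 43, against 81.2% of all genes. In 16 of the 43 (37.2%, against 5.84% of all genes) WT replicates 1 to 3 all lay above every Tsc1-/- array. With WT replicate 4 included, every WT array lay above every Tsc1-/- array in 2 genes, Adgre1 and Cd22 (4.65%, against 2.88% of all genes), and the reverse held in 0 of the 43, against 5.08% of all genes. Without WT replicate 4, 9 of the 43 genes (20.9%) passed as lower in Tsc1-/- and 0 as higher (limma, adjusted p under 0.05), against 0.93% of all genes called lower and 1.74% called higher. These were Csf1r, Adgre1, Mpeg1, C1qa, C1qc, Cd74, Cd22, Tyrobp and Fcer1g. Leaving out any other single array gave 0 calls among the 43, with lowest adjusted p-values of 0.0737 to 0.178 (limma). Over all genes, the share called lower was then 0.00585%, 0.00585% and 0.076% without WT replicates 1, 2 and 3, and 0.269%, 0.0117%, 0.0702%, 0.0526% and 0.00585% without Tsc1-/- replicates 1 to 5. The share called higher was 0.00585%, 0.0117% and 0.409%, and 0.831%, 0.0351%, 0.24%, 0.123% and 0.00585%. In each of these 8 fits fewer genes were called over all genes than with every array, so that 0 calls among the markers is read against a low background. The labels give no reason to set WT replicate 4 apart, and its CD8 T cell genes read 10.82 on average, within the range of the other arrays. It is set apart here by its low levels in these same genes, and leaving it out widens most of their differences. The p-values without WT replicate 4, here and below, therefore describe these arrays and are no separate test.

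**Figure D2:**
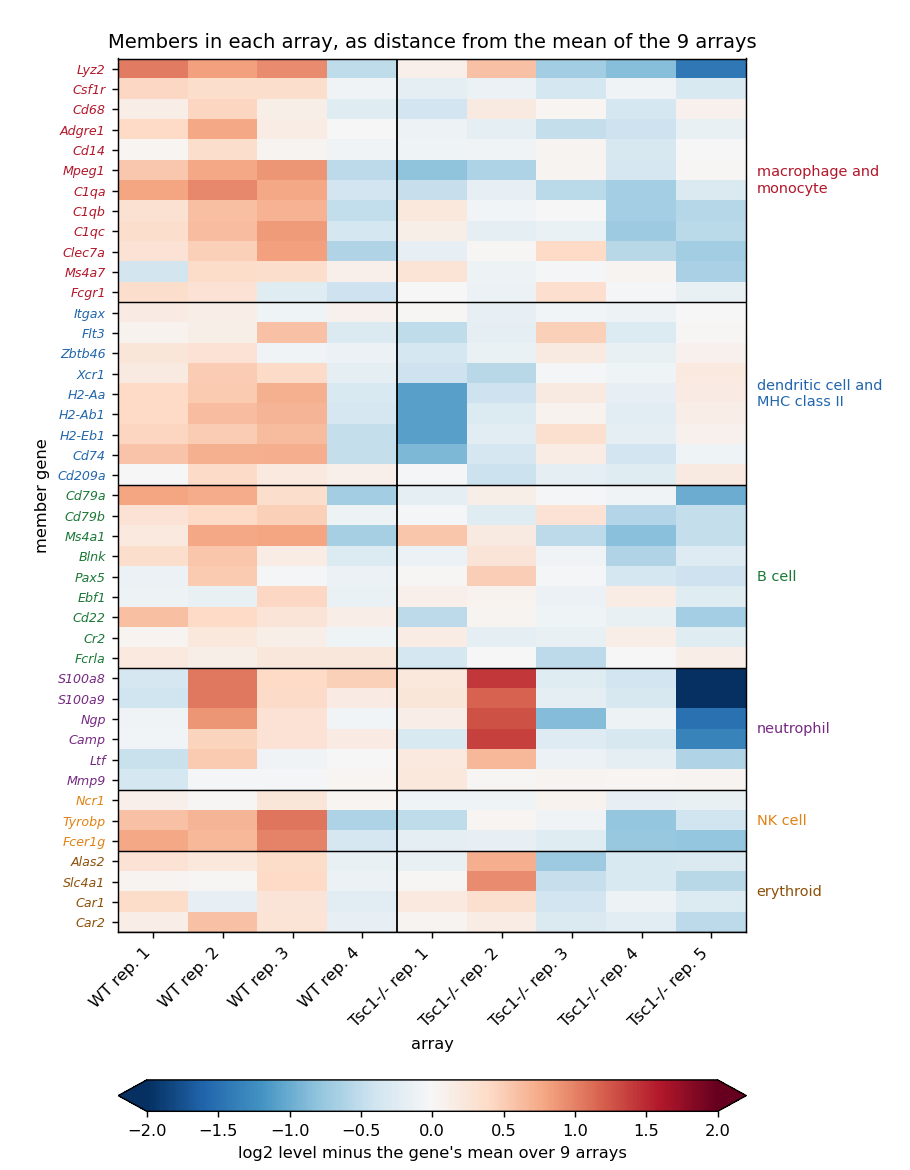
Each of the 43 marker genes (rows, grouped by cell type) in each of the 9 arrays (columns), as the log2 level minus that gene's mean over the 9 arrays, with colours ending at 2 on either side. WT replicates 1 to 3 are mostly red in the macrophage and class II rows, and Tsc1-/- replicate 1 is bluest in the class II rows. Tsc1-/- replicates 2 and 5 are the extremes of the neutrophil rows other than Mmp9.

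Among the macrophage genes, 11 of 12 had a lower mean in Tsc1-/-, with 0 called in the comparison of all arrays. Csf1r, the receptor for the growth factor that macrophages need to survive, read 6.56, 6.49, 6.50 and 6.07 in WT replicates 1 to 4 and 5.95, 6.03, 5.80, 6.07 and 5.84 in Tsc1-/- replicates 1 to 5. The first 3 WT arrays lay close together above all others, and WT replicate 4 lay level with the highest Tsc1-/- array. The difference was -0.47 (SE 0.11, adjusted p = 0.0567, limma), and -0.58 (SE 0.09, adjusted p = 0.0168, limma) without WT replicate 4. Adgre1, which encodes the macrophage surface protein F4/80, read 6.06, 6.44, 5.83 and 5.66 in WT and 5.56, 5.50, 5.20, 5.26 and 5.53 in Tsc1-/-. Its genotypes did not overlap, though WT replicate 4 lay just above Tsc1-/- replicate 1, and its mean was below the upper quartile of the other-organ genes. The difference was -0.59 (SE 0.14, adjusted p = 0.0636, limma).

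The 3 chains of C1q, the first component of the complement cascade, are made mainly by macrophages and come from neighbouring genes. C1qa read 7.34, 7.52, 7.32 and 6.16 in WT and 6.09, 6.38, 6.00, 5.87 and 6.26 in Tsc1-/-. WT replicate 4 thus lay among the Tsc1-/- arrays, and the other WT arrays lay well above all of them. The difference was -0.96 (SE 0.23, 95% interval -1.46 to -0.47, adjusted p = 0.0586, limma), which puts Tsc1-/- at 51.2% of the WT level, and -1.27 (SE 0.12, adjusted p = 0.00267, limma) without WT replicate 4. C1qc read 7.61, 7.88, 8.11 and 6.92 in WT and 7.38, 7.09, 7.14, 6.53 and 6.73 in Tsc1-/-, and C1qb read 7.04, 7.34, 7.43 and 6.25 against 6.95, 6.68, 6.73, 6.06 and 6.16. In both of these chains the order of the 9 arrays was the same, with WT replicate 3 highest and Tsc1-/- replicate 4 lowest. C1qc differed by -0.65 (SE 0.22) and C1qb by -0.50 (SE 0.24).

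Lyz2, the lysozyme of myeloid cells, had the largest difference of the 43 genes and also a wide spread. It read 9.31, 9.08, 9.20 and 7.76 in WT and 8.35, 8.84, 7.57, 7.41 and 6.83 in Tsc1-/-, a difference of -1.03 (SE 0.39, adjusted p = 0.199, limma). The level varied 4.04-fold within Tsc1-/- and 2.92-fold within WT, more than the 2.05-fold ratio of the genotype means. Its probe set is of a type (suffix x) that may also bind related transcripts. Mpeg1, a pore-forming protein of phagosomes, read 8.96, 9.19, 9.30 and 7.90 in WT and 7.62, 7.80, 8.47, 8.09 and 8.45 in Tsc1-/-, a difference of -0.75 (SE 0.26), and -1.06 (SE 0.19, adjusted p = 0.0233, limma) without WT replicate 4. The remaining macrophage genes differed by less. The lysosomal protein Cd68 differed by -0.19, the fungal glucan receptor Clec7a by -0.45, Ms4a7 by -0.21 and Cd14, a receptor for bacterial lipopolysaccharide, by -0.18, and the last 3 had means below the upper quartile of the other-organ genes. Fcgr1, the high-affinity IgG receptor, differed by 0.00 by the probe set used and by -0.51 (SE 0.12) by a further probe set of nearly the same mean level, so its probe sets disagreed.

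Of 21 further macrophage and monocyte genes, 16 were measured, all with a difference under 0 (median -0.36), against 51.8% of all genes. In this list 1 passed, as lower, against 0.31% of all genes called lower. The same shares over all genes stand beside the further lists below. All these lists were chosen with earlier results known, so their counts are no separate test. Spic, the transcription factor of red pulp macrophages, fell by 0.69 on the log2 scale (SE 0.12, adjusted p = 0.0339, limma), from 6.26 ± 0.16 to 5.57 ± 0.24 (SD, n = 4 and 5), with no overlap. Its mean over all arrays lay below the upper quartile of the other-organ genes, so it may be read partly from background. Its probe set is of a type (suffix s) that may also bind related transcripts. WT replicate 4 was not the lowest WT array for Spic: it read 6.19, between WT replicate 1 at 6.11 and WT replicate 2 at 6.27. Spic did not pass without WT replicate 1, 2 or 3 or without Tsc1-/- replicate 2, 4 or 5, with adjusted p-values of 0.0561 to 0.106 (limma), nor with the replicate number as a block (0.142). Cd163, the scavenger receptor for haemoglobin, and Cybb, a subunit of the phagocyte oxidase, were picked after their values were seen. They differed by -0.74 (adjusted p = 0.0521, limma) and -1.15 (adjusted p = 0.0666, limma). The mean of Cd163 also lay below the upper quartile of the other-organ genes.

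The dendritic cell list holds 4 measured genes of MHC class II and 5 others, a split by role made for this description. H2-Aa, H2-Ab1 and H2-Eb1 encode the chains that present peptides to CD4+ T cells, and Cd74 the invariant chain that escorts them. They are known to be switched on together by the coactivator CIITA, acting at an X box and a Y box ahead of each gene. Because these genes shared their order of arrays, the RefSeq promoters that were at hand (32 of the 45 genes, H2-Aa and H2-Eb1 among the class II genes) were searched on both strands. The motifs were CTGATTGG, a Y box with the bases before it, and GCAACT, part of an X box, chosen after these 2 promoters had been read. They are printed from GRCm38.p6, 250 bases before to 50 after the start of the transcript, with both motifs in capitals, at chr17:34287774-34288073 (minus strand) and chr17:34305617-34305916 (plus strand).
H2-Aa: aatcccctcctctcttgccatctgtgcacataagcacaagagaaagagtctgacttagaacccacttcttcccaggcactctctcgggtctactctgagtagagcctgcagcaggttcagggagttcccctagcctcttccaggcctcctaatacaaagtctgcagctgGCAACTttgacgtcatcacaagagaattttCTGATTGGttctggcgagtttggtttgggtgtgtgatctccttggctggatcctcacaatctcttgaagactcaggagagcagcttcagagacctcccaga
H2-Eb1: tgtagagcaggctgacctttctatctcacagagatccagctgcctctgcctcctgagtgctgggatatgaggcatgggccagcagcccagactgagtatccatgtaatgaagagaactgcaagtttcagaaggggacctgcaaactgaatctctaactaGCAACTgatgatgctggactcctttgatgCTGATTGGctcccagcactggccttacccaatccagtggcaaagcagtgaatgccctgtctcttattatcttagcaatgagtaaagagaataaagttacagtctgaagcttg
In H2-Aa the first motif starts at base 200 of the window and the second at base 170, and in H2-Eb1 at bases 189 and 160, so that 24 and 23 bases lie between them and they do not overlap. CTGATTGG is found in 4.1% of the 32851 promoters of the table, GCAACT in 10.9% and both in 0.466%. Among the 32 marker promoters CTGATTGG was found in H2-Aa and H2-Eb1, and GCAACT in 7: these 2 and Fcgr1, Flt3, Itgax, Ms4a7 and S100a8, which are not class II genes. These matches describe the letters and were not tested for binding. The gene of the coactivator, Ciita, differed by -0.11 (SE 0.12), with a mean below the upper quartile of the other-organ genes. It was highest in WT replicate 2 and lowest in Tsc1-/- replicate 4. What part CIITA had in the class II levels was not tested.

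All 4 class II genes had nearly the same order of arrays. H2-Aa read 10.09, 10.21, 10.41 and 9.39 in WT and 8.61, 9.27, 9.87, 9.53 and 9.86 in Tsc1-/-, and H2-Ab1 read 10.00, 10.22, 10.29 and 9.27 against 8.53, 9.34, 9.68, 9.40 and 9.75. H2-Eb1 read 9.67, 9.74, 9.87 and 8.77 against 8.15, 9.00, 9.55, 9.04 and 9.32. WT replicate 3 was highest and Tsc1-/- replicate 1 lowest in each of the 4, and WT replicate 4 stood at or below the level of most Tsc1-/- arrays. Cd74 read 11.11, 11.25, 11.26 and 10.06 in WT and 9.64, 10.19, 10.67, 10.15 and 10.45 in Tsc1-/-. Its difference was -0.70 (SE 0.25, adjusted p = 0.174, limma), and -0.98 (SE 0.19, adjusted p = 0.0276, limma) without WT replicate 4. The chain genes differed by -0.60 (H2-Aa), -0.61 (H2-Ab1) and -0.50 (H2-Eb1), and did not pass with or without that array. The spread within Tsc1-/- was 2.40-fold for H2-Aa, 2.33-fold for H2-Ab1 and 2.64-fold for H2-Eb1, against ratios of the genotype means of 1.51, 1.52 and 1.41. The probe sets used for H2-Aa (suffix x) and H2-Ab1 (suffix s) are of types that may bind related class II transcripts.

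The other 5 genes of the dendritic cell list varied less. Xcr1, the chemokine receptor of the cross-presenting dendritic cells that in mouse spleen carry CD8α, read 5.83, 6.15, 6.04 and 5.47 in WT and 5.24, 5.11, 5.63, 5.57 and 5.84 in Tsc1-/-, a difference of -0.39 (SE 0.17). Flt3, the receptor of their growth factor, read 6.33, 6.38, 6.84 and 5.97 against 5.75, 6.06, 6.74, 5.98 and 6.29 (difference -0.22, SE 0.20). In these 2 genes, as in class II, Tsc1-/- replicates 3 and 5 were above the other Tsc1-/- arrays. Xcr1 was highest in WT replicate 2 and lowest in Tsc1-/- replicate 2, unlike the class II genes. The mean of Xcr1 lay below the upper quartile of the other-organ genes, so it may be read partly from background. Cd209a, a lectin of monocyte-derived dendritic cells, differed by -0.31 (SE 0.12), with a mean below the same quartile. The transcription factor Zbtb46 differed by -0.16 (SE 0.13). Further Zbtb46 probe sets differed by -0.03, 0.05 and 0.25, so its probe sets disagreed. Itgax, the integrin CD11c, which cytotoxic lymphocytes can share, kept a bright and even level, 10.18 ± 0.11 in the WT and 10.05 ± 0.07 in the Tsc1-/- group (SD, n = 4 and 5), and varied 1.25-fold over all arrays against 3.07-fold to 3.48-fold for the class II genes. Further lists mostly lay on the same side. Of 11 measured further dendritic cell genes 10 had a difference under 0 (median -0.13), and of 7 plasmacytoid dendritic cell genes 7 (median -0.19). Of 9 genes of the class II pathway, Ciita among them, 9 had a difference under 0 (median -0.15). In each of these lists 0 passed (limma). The smallest p-values were those of Sirpa (-0.50), an inhibitory receptor of myeloid cells, Ly6d (-0.55) and H2-DMb2 (-0.60), a chain of the peptide exchange factor H2-M.

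Of the 9 B cell genes, all had a lower mean in Tsc1-/-, with a median difference of -0.36 and 0 called with all arrays. The signalling chains of the B cell receptor, Cd79a and Cd79b, read 7.47, 7.43, 7.04 and 5.99 in WT against 6.49, 6.80, 6.64, 6.62 and 5.70 in Tsc1-/- for Cd79a, and 7.09, 7.20, 7.27 and 6.71 against 6.77, 6.56, 7.09, 6.22 and 6.33 for Cd79b. WT replicate 4 was the lowest WT array in both and lay within the Tsc1-/- range. Cd79a differed by -0.53 (SE 0.29) and Cd79b by -0.47 (SE 0.17). Cd22, a receptor that damps B cell signalling, read 6.84, 6.63, 6.50 and 6.36 in WT and 5.71, 6.29, 6.14, 6.09 and 5.56 in Tsc1-/-. These groups did not overlap, though WT replicate 4 lay just above Tsc1-/- replicate 2, and the difference was -0.63 (SE 0.15, adjusted p = 0.0605, limma). A further Cd22 probe set differed by -0.18 (SE 0.14).

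Ms4a1, which encodes CD20, read 4.93, 5.51, 5.52 and 4.07 in WT and 5.28, 4.91, 4.22, 3.89 and 4.26 in Tsc1-/-, a difference of -0.50 (SE 0.32), with a mean below the upper quartile of the other-organ genes. The adaptor Blnk differed by -0.36 (SE 0.18) and the Fc receptor-like gene Fcrla by -0.34 (SE 0.13), while further Fcrla probe sets differed by -0.01 and -0.02. The transcription factors that define the B lineage, Pax5 and Ebf1, differed little. Both had means below that upper quartile, a level at which a difference may not show. Pax5 read 5.74 ± 0.31 in the WT and 5.63 ± 0.36 in the Tsc1-/- group (SD, n = 4 and 5), and Ebf1 4.20 ± 0.27 and 4.18 ± 0.16, with intervals of the difference of -0.52 to 0.28 and -0.29 to 0.26. The complement receptor Cr2 differed by -0.13. Blnk, Fcrla and Cr2 also had means below the upper quartile of the other-organ genes. Of 16 further B cell genes measured, 12 had a difference under 0 (median -0.18) and 0 passed. Bank1, a B cell scaffold, was at -0.70 (SE 0.23), with a mean below the same quartile. The plasma cell list had 5 measured genes, of which 3 had a difference under 0 and 2 above (median -0.03) and 0 passed. One of them, the joining chain gene Jchain of secreted antibody read 8.49, 7.37, 6.38 and 6.29 in WT and 5.59, 6.46, 4.99, 5.60 and 4.48 in Tsc1-/-. It differed by -1.71 (SE 0.45, adjusted p = 0.0761, limma) and was highest in WT replicate 1. The other 4 lay between -0.06 (Derl3) and 0.09 (Tnfrsf17). Of these, Derl3, Tnfrsf17 and Iglv1 had means below the upper quartile of the other-organ genes. Iglv1 also had a wide interval of the difference, -1.07 to 1.01. Whether other plasma cell genes followed Jchain can therefore not be read from this list.

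**Figure D3:**
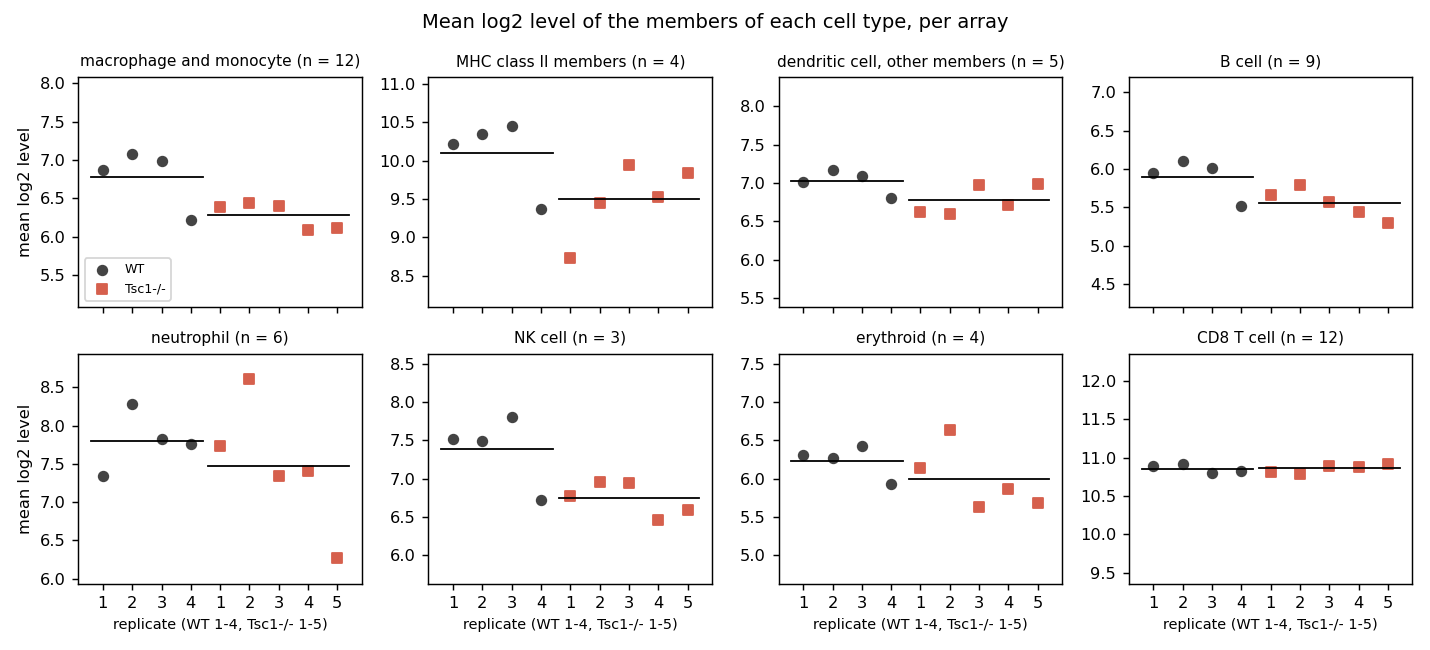
Mean log2 level of the measured genes of each cell type (y axis, 3 log2 units in every panel) in each array (x axis, WT circles and Tsc1-/- squares, line at the genotype mean), with the CD8 T cell genes for comparison. WT replicate 4 is lowest of WT in the macrophage, class II, B cell, NK cell and erythroid panels, the neutrophil genes run from 6.27 to 8.61, and the CD8 T cell genes stay between 10.79 and 10.92.

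Neutrophil genes had the widest spread of all and no such division by genotype. S100a8 and S100a9 encode the subunits of calprotectin, the most abundant protein of neutrophil cytosol. S100a8 read 8.93, 10.32, 9.65 and 9.73 in WT and 9.46, 10.68, 9.01, 8.88 and 6.65 in Tsc1-/-, and S100a9 read 9.33, 10.79, 10.12 and 9.90 against 9.97, 10.91, 9.54, 9.40 and 7.61. Tsc1-/- replicate 2 was the highest array and Tsc1-/- replicate 5 the lowest for both, which spans 16.3-fold in S100a8 and 9.87-fold in S100a9 within a single genotype. The differences of -0.72 (SE 0.59) and -0.55 (SE 0.51) were smaller than the spread within Tsc1-/-, whose SD was 1.46 and 1.20. The granule genes followed the same order at both ends. Ngp read 7.34, 8.30, 7.70 and 7.36 in WT and 7.55, 8.68, 6.54, 7.32 and 5.91 in Tsc1-/-, Camp, the cathelicidin precursor, 7.41, 7.91, 7.75 and 7.63 against 7.16, 8.83, 7.21, 7.15 and 6.14, and lactoferrin, Ltf, differed by -0.02 (SE 0.23). Mmp9, a gelatinase, read 5.50 ± 0.17 in WT and 5.66 ± 0.07 in Tsc1-/- (SD, n = 4 and 5) and did not take part in this order. Its mean lay below the upper quartile of the other-organ genes. A further Mmp9 probe set differed by -0.11 (SE 0.13), against 0.17 (SE 0.09) by the one used, so its probe sets disagreed. In contrast to the macrophage genes, WT replicate 1 and not WT replicate 4 was the lowest WT array in all 6 neutrophil genes. Single arrays set the median difference of the list: it was -0.43 with all arrays, -0.09 without Tsc1-/- replicate 5, -0.81 without Tsc1-/- replicate 2 and -0.28 without WT replicate 2. Of 13 further neutrophil genes measured, 0 passed (lowest adjusted p = 0.0602, limma, for Trem1, at -0.33), and 10 had a difference under 0.

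Of the 3 NK cell genes, only Ncr1 is private to NK cells and their innate relatives, and it was near the bottom of the array. It read 4.12, 4.05, 4.26 and 4.06 in WT and 3.94, 3.94, 4.10, 3.86 and 3.88 in Tsc1-/-, and 6.40% of all genes had a lower mean. Tyrobp and Fcer1g encode adaptor proteins through which NK cell receptors, and many receptors of macrophages, neutrophils and dendritic cells, signal. Tyrobp read 9.31, 9.40, 9.80 and 8.11 in WT and 8.23, 8.76, 8.65, 7.95 and 8.34 in Tsc1-/-, and Fcer1g read 9.12, 9.01, 9.34 and 8.01 against 8.15, 8.17, 8.10, 7.58 and 7.57. As in C1qa, WT replicates 1 to 3 lay above every other array and WT replicate 4 among the Tsc1-/- arrays. Fcer1g differed by -0.95 (SE 0.24, adjusted p = 0.0680, limma) and Tyrobp by -0.77 (SE 0.28). Without WT replicate 4 both passed, at -1.24 (SE 0.16, adjusted p = 0.00873, limma) and -1.12 (SE 0.18, adjusted p = 0.0175, limma). Of 11 further NK cell genes measured, several of which cytotoxic T cells share, 6 had a difference under 0 and 5 above (median -0.03). None passed (limma). At an unadjusted p under 0.05, 2 were lower and 2 higher, against 7.34% and 9.83% of all genes. The smallest p was that of the granzyme Gzma, at 0.32 (SE 0.08).

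The 4 erythroid genes had a median difference of -0.25, and 0 passed. That median was -0.43 without Tsc1-/- replicate 2 and -0.13 without Tsc1-/- replicate 3. Slc4a1, the anion exchanger of the red cell membrane, read 6.53, 6.51, 6.88 and 6.37 in WT and 6.51, 7.42, 6.01, 6.18 and 5.92 in Tsc1-/-, and Alas2, the first enzyme of haem synthesis in red cell precursors, 6.41, 6.33, 6.49 and 5.97 against 5.97, 6.84, 5.40, 5.82 and 5.83. Tsc1-/- replicate 2, the array highest in neutrophil genes, was also highest in these, and it widened the spread within Tsc1-/- to 2.83-fold for Slc4a1 and 2.73-fold for Alas2. The difference was -0.17 (SE 0.25) for Slc4a1 and -0.33 (SE 0.23) for Alas2. The carbonic anhydrases Car2 and Car1 differed by -0.37 (SE 0.16) and -0.11 (SE 0.16). The haemoglobin genes Hba-a1 and Hbb-b2, named after their values were seen and close in sequence to their gene copies, read from 8.73 to 11.82 and from 9.05 to 11.96, with the same arrays, Tsc1-/- replicates 5 and 2, at either end. The third haemoglobin gene measured, Hba-a2, did not follow: it read 10.65 in WT replicate 4 and 11.07 to 11.21 in the Tsc1-/- arrays, with 11.17 in Tsc1-/- replicate 5. Of 16 further erythroid genes measured, 10 had a difference under 0 (median -0.01) and 0 passed, the smallest p being that of the transferrin receptor Tfrc, at 0.46 (SE 0.16), which dividing cells of any type use.

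**Figure D4:**
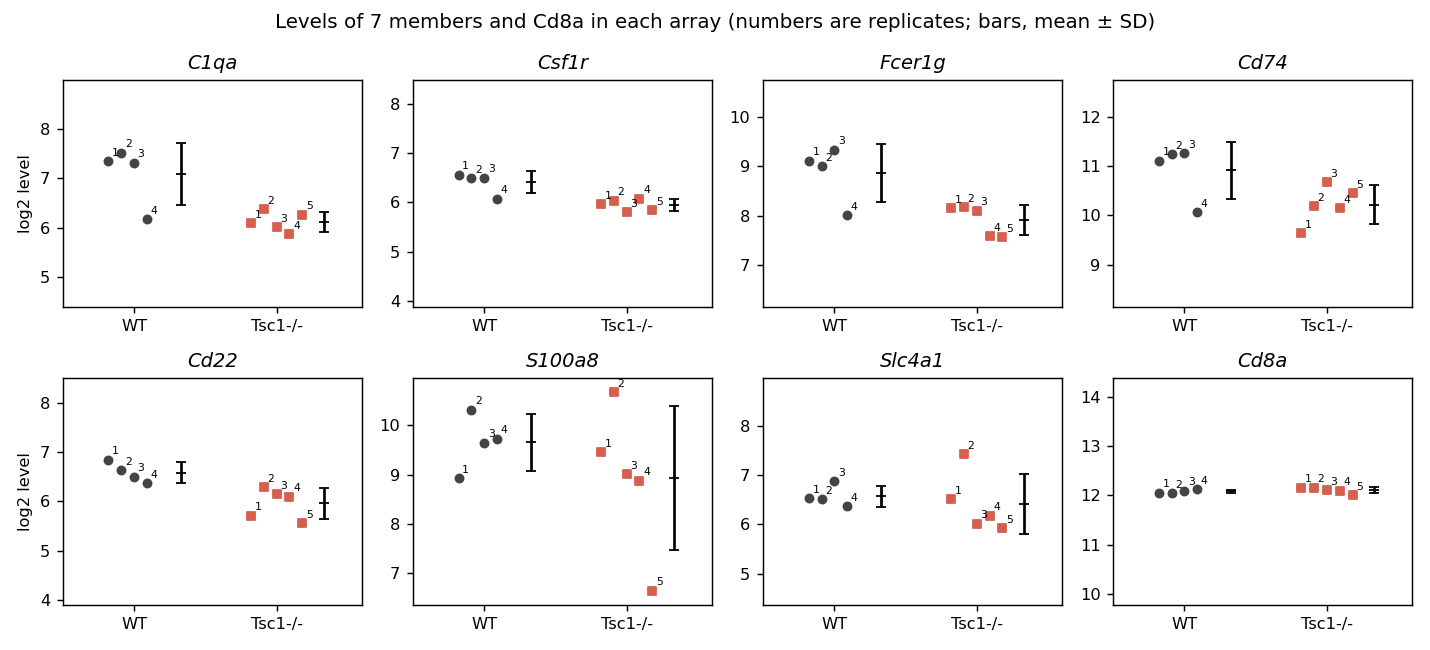
Log2 level of 7 marker genes and of Cd8a in each array (y axis, the same span in every panel), with WT as circles, Tsc1-/- as squares, replicate numbers beside the points and the mean ± SD at the right of each group. WT replicate 4 lies with the Tsc1-/- arrays in C1qa, Fcer1g and Cd74, S100a8 runs from 6.65 to 10.68, and Cd8a stays near 12.1 throughout.

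The cell types therefore did not share a single order of arrays. WT replicate 4 was the lowest WT array in 11 of 12 macrophage, 4 of 4 class II, 6 of 9 B cell and 4 of 4 erythroid genes, and in 0 of 6 neutrophil genes. Tsc1-/- replicate 1 was the lowest of all 9 arrays in 4 of 4 class II genes, in 2 of 12 macrophage genes and in 0 of 9 B cell genes. Tsc1-/- replicate 5 was lowest in 5 of 9 B cell and 5 of 6 neutrophil genes and in 0 of 4 class II genes. The mean level of the macrophage genes was 6.21 to 7.07 in WT and 6.09 to 6.44 in Tsc1-/-, that of the B cell genes 5.52 to 6.10 and 5.30 to 5.79, and that of the neutrophil genes 7.34 to 8.28 and 6.27 to 8.61. The marker genes also varied more within a genotype than other genes did: the pooled SD was above the median of all genes (0.15) in 40 of the 43, with a median of 0.37 and a maximum of 1.16 (S100a8), against a median of 0.07 for the CD8 T cell genes. Markers of cell types outside the 6 had small median differences, but so had some further lists of the 6 types. The further lists had medians of -0.36 (macrophage), -0.13 (dendritic cell), -0.18 (B cell), -0.13 (neutrophil), -0.03 (NK cell) and -0.01 (erythroid). Outside the 6, the median was -0.14 over 7 platelet genes, -0.02 over 7 mast cell and basophil genes, -0.06 over 6 eosinophil genes and -0.03 over 12 genes of stroma and endothelium, and 0 passed (limma). Of these, 3 platelet, 1 mast cell and basophil, 0 eosinophil and 2 stroma and endothelium genes had means above the upper quartile of the other-organ genes. The smallest p-values were those of Gp9 (-0.18), Gata2 (-0.10), Ccr3 (-0.51) and the endothelial and myeloid adhesion gene Pecam1 (-0.44, adjusted p = 0.0606, limma). What part these marker levels had in the differences of other genes between the genotypes was not tested.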

How the data were processed

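RNA was measured on 1 array per sample in 4 WT and 5 Tsc1-/- samples, grouped by the labels. Each array took biotin-labelled product amplified from 12 ng of RNA, per the labels' protocols. The authors deposited RMA log2 values, 1 per probe set and sample. The submitters' processing notes name Partek 6.5 beside RMA. RMA quantile normalizes the arrays, so a change shared by most genes would not show. No source used here gives its options. Of 45037 probe sets, 28898 had 1 annotated gene, 551 several and 15588 none listed. Symbols were updated through Entrez identifiers (28689 matched) with RefSeq of GRCm38.p6, and each of 17097 genes was represented by its probe set of highest mean.

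Genes were tested with limma 3.58.1 in R 4.3.3, two-sided, with genotype as the only term and no filter on level, and p-values were adjusted by Benjamini-Hochberg over the 17097 genes. The test was checked on simulated data. Gene lists got counts and medians and no test. The markers and lists were chosen with earlier results of these data known. Named were a fixed set of defining markers, the genes of each cell type with the smallest p, and 1 gene of each further list (those past the threshold, otherwise the smallest p). Alternatives were to average the probe sets of a gene, to leave out dim genes, to quantile normalize or median centre the values again, to fit a robust variance trend, to weight the arrays, to block on the replicate number, to call at an adjusted p under 0.1, and to leave out each array. The number of arrays limits the precision.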

Additional observations from a re-analysis of the deposited data

Results flagged for a closer look

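Within each genotype, each marker gene and each cell type mean was checked for an array far from the others (Dixon's criterion). Of 98 such checks, 8 stood out, all of single genes, where chance gives about 1 in 20. WT replicate 4 was far below the other WT arrays in Lyz2 (7.76, with the next at 9.08), Csf1r (6.07, next 6.49), C1qa (6.16, next 7.32) and Cd74 (10.06, next 11.11). WT replicate 2 was far above in Pax5 (6.21, next 5.65) and WT replicate 3 in Ebf1 (4.60, next 4.08). Tsc1-/- replicate 5 was far below in Cd79a (5.70, next 6.49), and Tsc1-/- replicate 1 far above in Mmp9 (5.79, next 5.64).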

How the results depend on the processing

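Of the 43 marker genes, the number called lower was 0 with all arrays and 4 of 25 when dim genes were left out (Csf1r, C1qa, Cd22 and Fcer1g, against 1.72% of all genes), 3 with a variance trend (Csf1r, Adgre1 and Cd22, against 1% of all genes), 5 with array weights (against 0.731%), 5 at an adjusted p under 0.1 (against 1.22%) and 9 without WT replicate 4 (against 0.93%), and 0 to 9 over the arrays left out. None was called higher in any setting run. Over all genes 53 were lower and 166 higher as deposited, 32 and 58 after quantile normalization and 57 and 381 after median centring. Marker genes whose genotypes did not overlap numbered 2 lower (2.88% of all genes) and 0 higher (5.08%), 1 lower with the averaged probe sets of a gene (3.19%), and 1 higher with quantile normalization (4.29%) or median centring (7.08%). Over the arrays left out, 2 to 16 were lower, with 3.83% to 5.84% of all genes, and 0 to 1 higher, with 5.63% to 7.74%. The medians of the 6 cell types stayed below 0 in every setting. Over the arrays left out that of the NK cell genes ran from -1.12 (without WT replicate 4) to -0.56 (without WT replicate 3), that of the neutrophil genes from -0.81 (without Tsc1-/- replicate 2) to -0.09 (without Tsc1-/- replicate 5), and that of the erythroid genes from -0.43 (without Tsc1-/- replicate 2) to -0.13 (without Tsc1-/- replicate 3). Over 16 settings 5 genes changed sign at least once. Fcgr1 (0.00) went to -0.254 with averaged probe sets and -0.0549 with array weights, and ran from -0.135 to 0.119 over the arrays left out. Zbtb46 (-0.16) went to 0.0279 with averaged probe sets. Pax5 (-0.12) ran from -0.255 to 0.0355 over the arrays left out, above 0 without WT replicate 2. Ebf1 (-0.02) went to 0.013, 0.0248 and 0.0406 with quantile normalization, median centring and the replicate block, and ran from -0.0684 to 0.117 over the arrays left out. Ltf (-0.02) went to 0.0177, 0.0277 and 0.134 with these 3, and ran from -0.185 to 0.159. The cause of these changes was not tested. The replicate numbers did not pair the samples: same-numbered arrays correlated at -0.10 to 0.09 in their deviations, and 1 of 4 WT arrays matched its own number best. The replicate block gave 0 calls over all genes, but it takes no information from Tsc1-/- replicate 5, which has no partner and without which 2 genes were called, so this count says little of pairing. The signal over background could not be read from these values, so dim genes have no firm floor.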
